A study of Sus scrofa with 12 samples.

Results

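The genes described here are the components of oxidative phosphorylation in the endometrium of pregnant sows. They are the genes of the deposited table that its KEGG annotation places in the oxidative phosphorylation pathway and not in the lysosome pathway, which gives 122 of the 20674 genes. Another 10 genes of the pathway, all subunits or partners of the V-type ATPase, are also annotated to the lysosome and were left out by this rule. Of the 122 members, 109 are encoded in the nucleus and 13 in the mitochondrial genome. After removal of genes with low counts, 113 members could be tested, 100 nuclear and all 13 mitochondrial ones, within a fit of 15351 genes.

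In oxidative phosphorylation, complexes I and II pass electrons from NADH and succinate to ubiquinone, complex III passes them on to cytochrome c, and complex IV hands them to oxygen. Complexes I, III and IV pump protons across the inner mitochondrial membrane, and complex V, the ATP synthase, uses the returning protons to make ATP. Core subunits of complexes I, III and V come from both genomes, whereas complex II is built from nuclear genes alone. The KEGG pathway also lists the V-type ATPase, a related rotary pump that spends ATP to acidify endosomes, lysosomes and secretory vesicles and that is no part of the respiratory chain.

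The 4 groups were Landrace × Yorkshire sows, multiparous and inseminated, that received one of 4 diets over 114 days of gestation. The L − N diet held 3.73% crude fiber and no N-carbamylglutamate (NCG), an analog of the cofactor that activates arginine synthesis, and the L + N diet held the same fiber with 0.05% NCG. The H − N diet held 7.46% crude fiber without NCG, and the H + N diet held 7.46% crude fiber with 0.05% NCG. Each group had 3 libraries of poly(A) RNA, while the study's methods give 6 sows per group for tissue sampling, and a replicate number is only a name. The total count per library was 14369781 to 19309724. The tissue label was checked with markers. Stromal markers summed to 26188 to 61536 CPM (counts scaled to the library size) and epithelial markers to 962 to 2202 CPM in the 12 libraries. Of the trophoblast list, GCM1 had at most 4 counts and CYP19A1 had 0 counts in a library. Low counts of so few genes cannot exclude trophoblast in the tissue. PAG1, which was also on the trophoblast list, had 347 to 957 counts, but the table describes it as a phosphoprotein membrane anchor and not as the pregnancy-associated glycoprotein meant, so it tests nothing about trophoblast.

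The 122 members held 3.24% to 4.56% of the counts of a library, and most of this came from the mitochondrial genome. The 13 mitochondrially encoded genes took 83.6% of the summed CPM of the members over all libraries, complex V took 4.87%, complex I 3.82%, complex IV 2.92% and the V-type ATPase 2.30%. Levels of different genes were compared as CPM per kilobase of gene model. On this scale COX3, a core subunit of complex IV, was the highest mitochondrial gene with a mean level of 8000 over the 12 libraries. The highest nuclear gene of complex V was ATP5F1B, the catalytic beta subunit, with a mean level of 243. COX6C led the nuclear genes of complex IV with 202, NDUFS5 those of complex I with 145, UQCRH those of complex III with 101 and SDHB those of complex II with 81.3. In the V-type ATPase, the stalk subunit ATP6V1G1 had the highest mean level per kilobase, 181.

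Where a subunit exists in more than one form, the ubiquitous form was the more abundant one in every group. COX4I2, the form of COX4 linked to low oxygen, made up a median of 4.9% to 6.6% of the summed level per kilobase of COX4I1 and COX4I2 in the 4 groups. COX7A1, the form known from heart and skeletal muscle, made up a larger share, with medians of 31.1% to 35.2% of the sum of COX7A1 and COX7A2. Of the 3 genes for the ring subunit c of the ATP synthase, ATP5MC3 had group means of 119.7 to 153 CPM per kilobase, ATP5MC1 40.4 to 52.7 and ATP5MC2 28.0 to 32.3. ATP6V1B1, the V-type ATPase subunit B of the kidney and some other epithelia, made up a median of 21.0% to 26.6% of the sum of ATP6V1B1 and ATP6V1B2. NDUFA4, which KEGG places in complex I, is known as a subunit of complex IV, and it was counted here as KEGG has it. The testis form COX6B2 had at most 9 counts in a library, and the stomach proton pump subunit ATP4B had at most 2.

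A member at or near 0 is not thereby silent in this tissue. UQCR11, a small subunit of complex III, had 0 counts in all 12 libraries, and its gene shares 3057 bases with TCF3 on the same strand. COX11, an assembly factor of complex IV, had 0.71 to 1.53 CPM and overlaps TOM1L1 and STXBP4 on the opposite strand. In all, 26 members overlap another gene, and whether the counting used the strand is not given in the sources used here, so their values are uncertain.

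**Figure D1:**
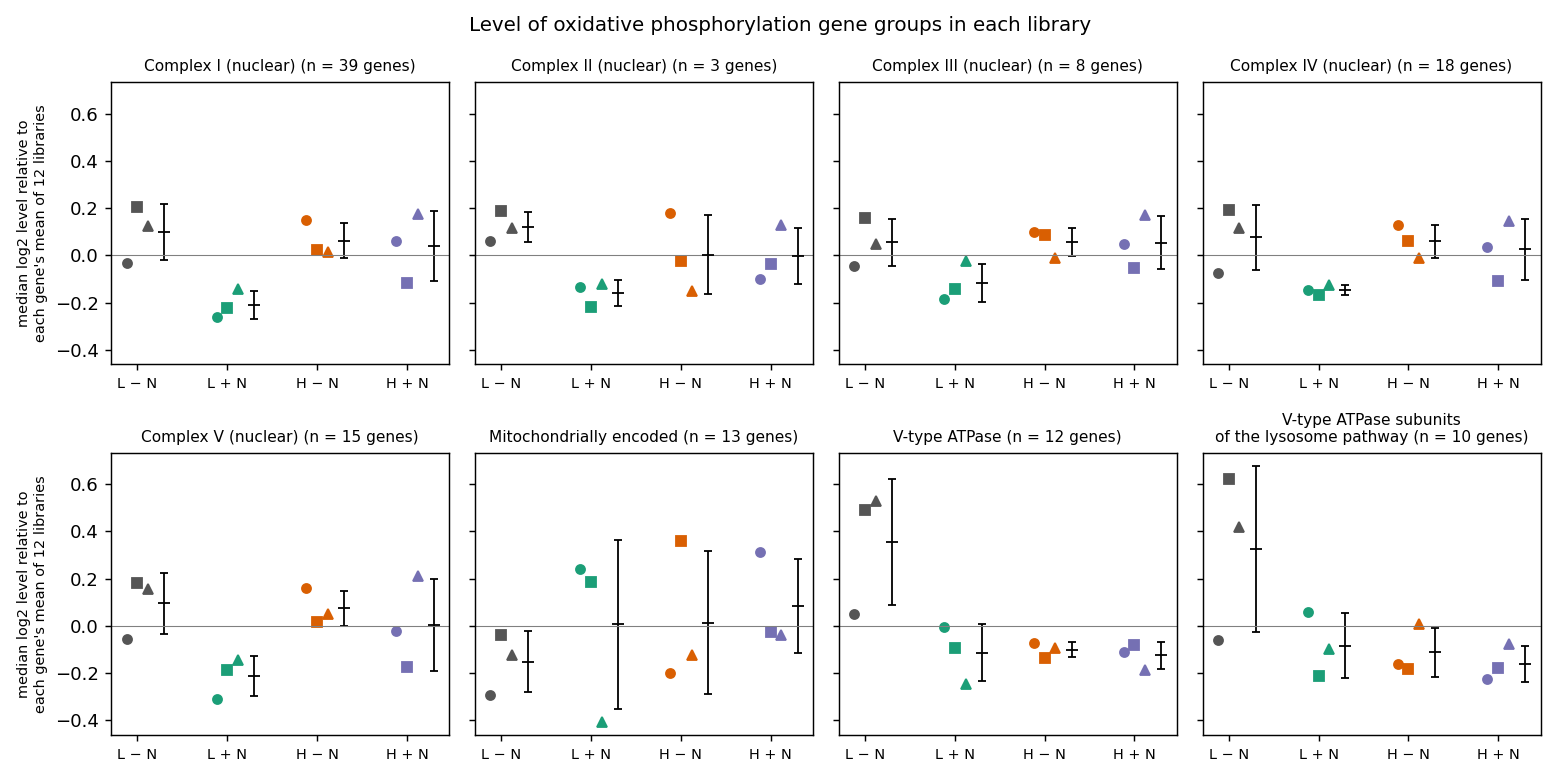
Median log2 level of the tested genes of each group of members, relative to each gene's own mean over the 12 libraries (y axis), by diet group (x axis). Circles, squares and triangles are replicates 1, 2 and 3, and the black marks give the mean ± SD (n = 3). The V-type ATPase is highest in L − N replicates 2 and 3, the nuclear genes of complex I are lowest in L + N, and the mitochondrially encoded genes spread within each group with an SD of 0.13 to 0.36.

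Among the groups of members, 2 patterns stood out in the plot of median levels by library. The V-type ATPase was higher in L − N than in the other 3 groups, and the nuclear genes of complexes I to V were lower in L + N than in L − N. The mitochondrially encoded genes did not share either pattern. A test for any difference among the 4 groups passed for 4 of the 113 members (edgeR's quasi-likelihood test, adjusted p under 0.05), against 6.96% of all genes tested. All 4 were V-type ATPase subunits, ATP6V1F, ATP6V1E1, ATP6V0E1 and ATP6V1D, with adjusted p-values of 0.0326, 0.0343, 0.0405 and 0.0492. This count was 0 without L − N replicate 2 or 3, L + N replicate 2 or 3 or H + N replicate 1, against 0.0261% to 3.13% of all genes, and 12 without L − N replicate 1, against 11.3% of all genes. RNA of whole tissue cannot tell fewer cells of a type from less RNA per cell, and this holds for every difference given here.

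The V-type ATPase is built from a catalytic part, V1, and a membrane part, V0. Its 12 members summed to 974, 1285 and 1239 CPM in L − N replicates 1, 2 and 3. They summed to 740 to 850 CPM in L + N, 840 to 865 CPM in H − N and 770 to 818 CPM in H + N, so that all 9 libraries of the other groups lay below all L − N libraries. The median log2 fold change of the 12 members against L − N was -0.54 for L + N, -0.44 for H − N and -0.51 for H + N, beside medians over all genes tested of -0.02, 0.03 and 0.02. The 3 comparisons share the L − N libraries and are not independent of each other.

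ATP6V1F, a subunit of the central rotor shaft (chromosome 18, 19753761 to 19756706 of Sscrofa11.1, minus strand), showed the largest difference of the subunits that passed. Its level was 32.5, 66.9 and 58.8 CPM in L − N replicates 1, 2 and 3. It was 27.4, 22.5 and 29.0 CPM in L + N, 25.8, 26.1 and 29.9 CPM in H − N and 26.0, 27.3 and 27.8 CPM in H + N. Every library of the other groups was below the lowest of L − N, but L − N replicate 1 lay far closer to them than replicates 2 and 3 did. In L + N against L − N the log2 fold change was -1.005 ± 0.22 (SE, adjusted p = 0.0200, edgeR), and ATP6V1F was the only member past both thresholds of the study, an adjusted p under 0.05 and an absolute log2 fold change above 1, in any comparison. This call lay at the threshold. The log2 fold change was -0.95 with upper quartile scaling and -0.86 with the length correction, neither of which passes both thresholds. It was -0.80 without L − N replicate 2, and the adjusted p ranged from 0.000491 to 0.0835 over all alternatives and left-out libraries. Both thresholds were passed by 3.99% of all genes in that comparison, 2.91% in H − N, 3.58% in H + N, 1.8% for NCG, 0.0261% for fiber and 0% for the interaction. The log2 fold change was -0.95 ± 0.22 in H − N (adjusted p = 0.0360) and -0.96 ± 0.22 in H + N (adjusted p = 0.0292, edgeR).

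ATP6V1E1, a subunit of the outer stalk (chromosome 5, 69752644 to 69772038), was at 136, 171 and 175 CPM in L − N and at 94.1 to 108 CPM in L + N. It was at 107 to 136 CPM in H − N and 101 to 116 CPM in H + N, and none of these 9 libraries reached the lowest of L − N. Its log2 fold change was -0.67 ± 0.13 in L + N (adjusted p = 0.0132) and -0.55 ± 0.13 in H + N (adjusted p = 0.0310, edgeR). ATP6V0E1, a small subunit of the membrane part, was at 111, 161 and 147 CPM in L − N, at 78.4 to 99.1 CPM in L + N, at 96.2 to 107 CPM in H − N and at 88.3 to 101 CPM in H + N. It too showed no overlap with L − N, and its log2 fold change was -0.70 ± 0.14 in L + N and -0.59 ± 0.14 in H + N (adjusted p = 0.0167 and 0.0344, edgeR). ATP6V1A, which holds the catalytic site, was at 70.9, 146 and 135 CPM in L − N and at 59.9, 67.0 and 61.6 CPM in H − N, with a log2 fold change of -0.90 ± 0.22 (adjusted p = 0.0414, edgeR). In L + N and H + N, ATP6V1A reached 82.3 and 78.9 CPM, above L − N replicate 1, and did not pass.

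**Figure D2:**
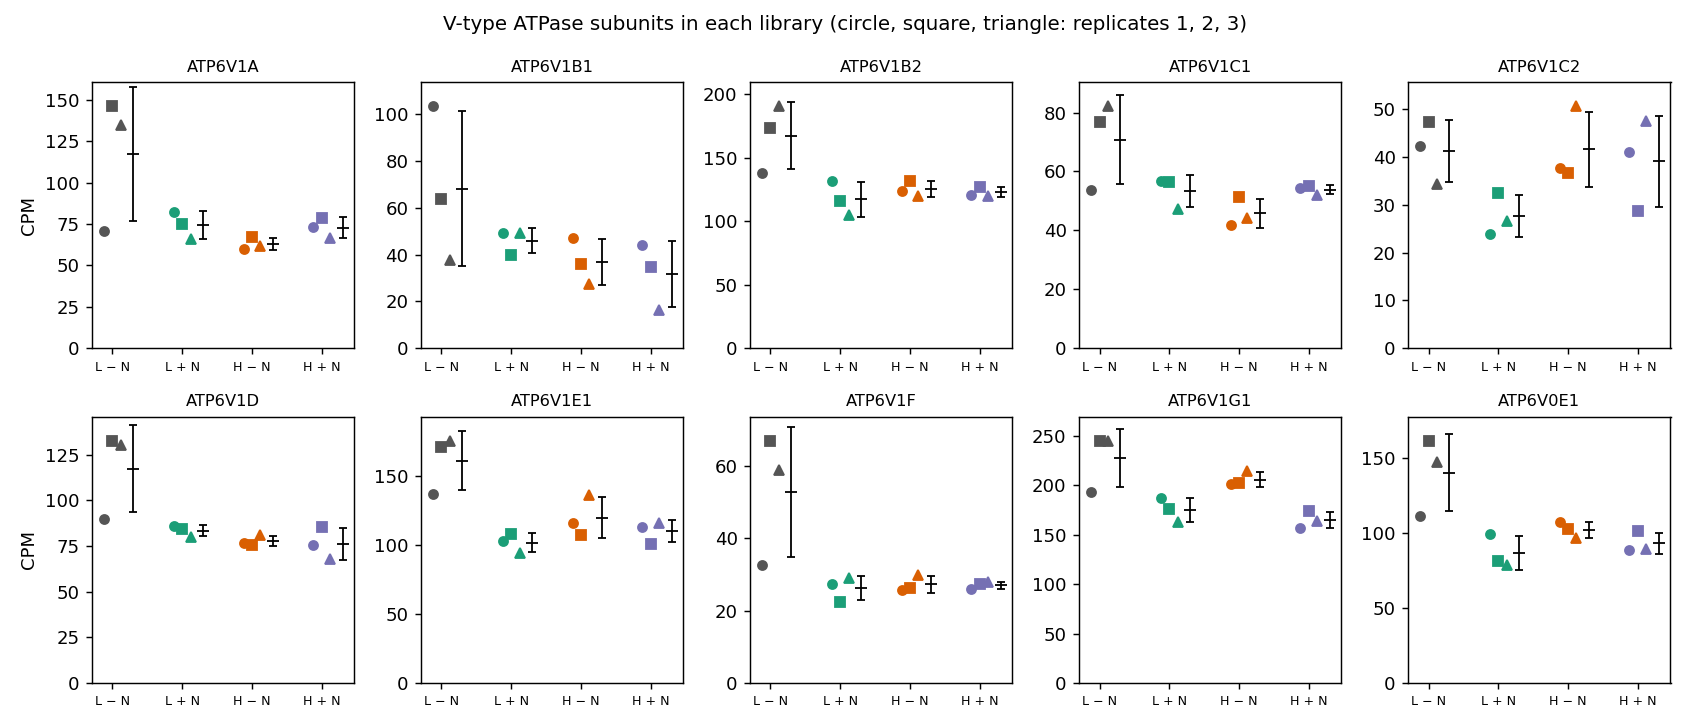
Level of 10 V-type ATPase subunits in CPM (y axis) in each library, by diet group (x axis), with replicates 1, 2 and 3 as circles, squares and triangles and mean ± SD in black (n = 3). L − N replicates 2 and 3 are the highest libraries for most subunits, and ATP6V1B1 differs, with its highest level, 103 CPM, in L − N replicate 1.

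By a threshold of adjusted p under 0.05 alone, 4 of the 12 V-type ATPase members fell in L + N against L − N, ATP6V1E1, ATP6V0E1, ATP6V1F and ATP6V1B2. In H − N, 4 fell, ATP6V1F, ATP6V1A, ATP6V1D and ATP6V1C1. In H + N, 5 fell, ATP6V1F, ATP6V1E1, ATP6V1D, ATP6V0E1 and ATP6V1G1, and none rose in any of the 3 comparisons. Of all genes tested, 3.63% fell and 5.97% rose by that threshold in L + N. The shares were 3.71% and 1.56% in H − N, and 3.66% and 4.31% in H + N. All L + N libraries lay below all L − N libraries for 7 of the 12 members, against 17.2% of all genes. This held for 7 of 12 in H − N and 6 of 12 in H + N, against 12.7% of all genes in each.

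The 12 members did not move alike. ATP6V1B1 was at 103, 63.9 and 37.7 CPM in L − N, and for 9 of the 12 members L − N replicate 1 was the lowest library of its group, but for ATP6V1B1 it was the highest. ATP6V1B1 was at 44.2, 34.8 and 16.2 CPM in H + N, which overlapped with L − N, and its log2 fold change of -1.11 ± 0.39 there, the lowest of the 12 members, did not pass (adjusted p = 0.0963, edgeR). ATP6V1G3 and ATP6V1E2, further forms of subunits G and E, had low levels and log2 fold changes above 0 in all 3 comparisons, none of which passed. ATP6V1G3 was at 0.69 to 1.14 CPM in L − N and 1.65 to 4.09 CPM in H − N, with no overlap (log2 fold change 1.35 ± 0.61, adjusted p = 0.199, edgeR). ATP6V1E2 was at 1.21 to 2.55 CPM in L − N and 1.90 to 4.15 CPM in H + N (log2 fold change 0.61 ± 0.39, adjusted p = 0.337, edgeR). ATP6V1C2, a form of subunit C with a narrow tissue range, was at 34.4 to 47.4 CPM in L − N and 36.6 to 50.6 CPM in H − N, and these groups overlapped. The 10 subunits or partners left out for their lysosome annotation were also highest in L − N on average, but not in every library. They summed to 515, 867 and 748 CPM in L − N replicates 1, 2 and 3 and to 452 to 564 CPM in the other 9 libraries, so that L − N replicate 1 lay within the range of the other groups. Their median log2 fold change was -0.38 for L + N, -0.45 for H − N and -0.46 for H + N. ATP6V0B, a ring subunit of the membrane part, fell in all 3 (log2 fold change -0.74, -0.78 and -0.80, adjusted p = 0.0445, 0.0495 and 0.0392, edgeR), and ATP6V1H fell in L + N (-0.70 ± 0.19, adjusted p = 0.0416, edgeR).

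These calls depended on single libraries, and calls over all genes fell with them. Without L − N replicate 1, 8 of the 12 members passed in L + N and in H + N and 7 in H − N, against 12.8%, 11.9% and 13.1% of all genes. In L + N, 0 of the 12 passed without L − N replicate 3, against 1.35% of all genes, and 1 to 3 passed without L − N replicate 2 or any single L + N library. In H − N, 0 passed without L − N replicate 2 or 3 or any single H − N library, against 0% to 1.5% of all genes. There 1 passed, ATP6V1F, without any single L + N library or H + N replicate 1, which are in neither group compared but share the estimate of the spread, against 3.09% to 3.6% of all genes. In H + N, 0 passed without L − N replicate 2 or 3 or H + N replicate 1 or 3, against 0.00651% to 3.28% of all genes. With each of the 12 libraries left out in turn, the median log2 fold change of the 12 members against L − N was between -0.61 and -0.39 in the 3 comparisons. Macrophage markers varied in the same libraries. The 7 markers CD68, CD163, CSF1R, MRC1, AIF1, C1QA and C1QB, all detected, summed to 1024, 2644 and 2699 CPM in L − N replicates 1, 2 and 3. They summed to 837 to 1199 CPM in L + N, 525 to 779 CPM in H − N and 841 to 1071 CPM in H + N. Of these markers, 1 fell in L + N (CD163), 5 fell in H − N (C1QA, C1QB, CD68, CSF1R and CD163) and 2 fell in H + N (CSF1R and CD163). Smooth muscle markers summed to 5406, 1726 and 2136 CPM in L − N and to 889 to 1693 CPM in the other groups. Endothelial markers summed to 1062 to 1617 CPM in L − N, 767 to 932 CPM in L + N, 1073 to 1130 CPM in H − N and 946 to 1194 CPM in H + N. Of these, PECAM1 and CDH5 fell in L + N, 0 passed in H − N, and PECAM1 fell in H + N (log2 fold change -0.78, adjusted p = 0.0374, edgeR). Of the 6 epithelial markers detected, CDH1 rose in H − N, where the sum was 1459 to 2202 CPM beside 962 to 1367 CPM in L − N. Of the 7 stromal markers, only VIM passed, and it fell in all 3 comparisons, with log2 fold changes of -0.88 for L + N, -1.61 for H − N and -1.23 for H + N. The medians of the 7 were 0.20, 0.015 and 0.29, and their sum was 28369 to 32769 CPM in L − N and 26188 to 61536 CPM in the other 9 libraries. The part of these cell types in the V-type ATPase result was not tested.

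The nuclear genes of complexes I to V were lower in L + N than in L − N, the comparison that asks what NCG does on the low-fiber diet. In L + N against L − N, the log2 fold change was below 0 for 78 of the 83 members tested, with a median of -0.29 beside -0.02 over all genes. It was below 0 for 52.3% of all genes. The 83 genes summed to 5147, 5885 and 5667 CPM in L − N and to 4522, 4688 and 4794 CPM in L + N, with no overlap. For 41 of the 83, all L + N libraries were below all L − N libraries, against 17.2% of all genes. The reverse held for 0 of the 83 and for 18% of all genes. Markers of other cell types moved in the same comparison. The 7 endothelial markers, all detected, summed to 1062 to 1617 CPM in L − N and 767 to 932 CPM in L + N, and 2 of them fell, PECAM1 (log2 fold change -1.09) and CDH5 (-0.69). The 7 smooth muscle markers, all detected, summed to 1726 to 5406 CPM in L − N and 1106 to 1320 CPM in L + N, and 2 of them fell, TAGLN (-1.503) and ACTA2 (-1.76). Of the stromal markers only VIM fell, as given above. The red cell marker AHSP also fell and was at 0.19 to 1.65 CPM in L − N and at most 0.065 CPM in L + N. Their part in the result was not tested.

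The median in L + N was below 0 in each complex, while members passed an adjusted p under 0.05 by edgeR in complexes I and V alone. In complex I, 38 of 39 nuclear subunits had a log2 fold change below 0, with a median of -0.31, and in complex V 15 of 15, also with a median of -0.31. The median was -0.29 in complex IV (15 of 18 below 0), -0.25 in complex II (3 of 3) and -0.14 in complex III (7 of 8). The 19 core subunits among them, which carry out electron transfer or ATP synthesis, had a median of -0.17 with 18 below 0.

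Of the 83, 7 fell at an adjusted p under 0.05, 5 accessory subunits of complex I and 2 subunits of complex V, against 3.63% of all genes. Without L − N replicate 3 or L + N replicate 2 or 3, 0 of the 83 passed, and 1 passed without L − N replicate 2 or L + N replicate 1, against 1.35% to 5.62% of all genes. Without L − N replicate 1, 14 passed, against 12.8% of all genes. NDUFB9, of the membrane arm of complex I (chromosome 4, 15105305 to 15113281, minus strand), was at 39.9, 52.0 and 53.1 CPM in L − N and at 32.5, 30.5 and 27.1 CPM in L + N. The 2 groups did not overlap, and the log2 fold change was -0.69 ± 0.15 (adjusted p = 0.0202, edgeR). NDUFB5, of the same arm (chromosome 13, 117656411 to 117671515, plus strand), was at 45.3, 43.6 and 43.2 CPM in L − N and at 29.2, 33.9 and 33.1 CPM in L + N. Its groups were also apart, with a log2 fold change of -0.46 ± 0.10 (adjusted p = 0.0183, edgeR).

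ATP5F1E, the epsilon subunit of the ATP synthase (chromosome 17, 59163085 to 59174488), was at 122, 120.0 and 126 CPM in L − N and at 84.9, 85.4 and 86.1 CPM in L + N. Replicates of either group lay within a few CPM of each other, and the log2 fold change was -0.52 ± 0.12 (adjusted p = 0.0265, edgeR). Its gene overlaps TUBB1 on the opposite strand. ATP5PF, a stalk subunit of the ATP synthase (chromosome 13, 189281429 to 189290234), was at 66.1, 70.9 and 74.9 CPM in L − N and at 46.4, 50.1 and 46.4 CPM in L + N, again with no overlap (log2 fold change -0.57 ± 0.14, adjusted p = 0.0306, edgeR). The other 3 that fell were NDUFB4, NDUFB8 and NDUFS5, with log2 fold changes of -0.52, -0.42 and -0.41.

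**Figure D3:**
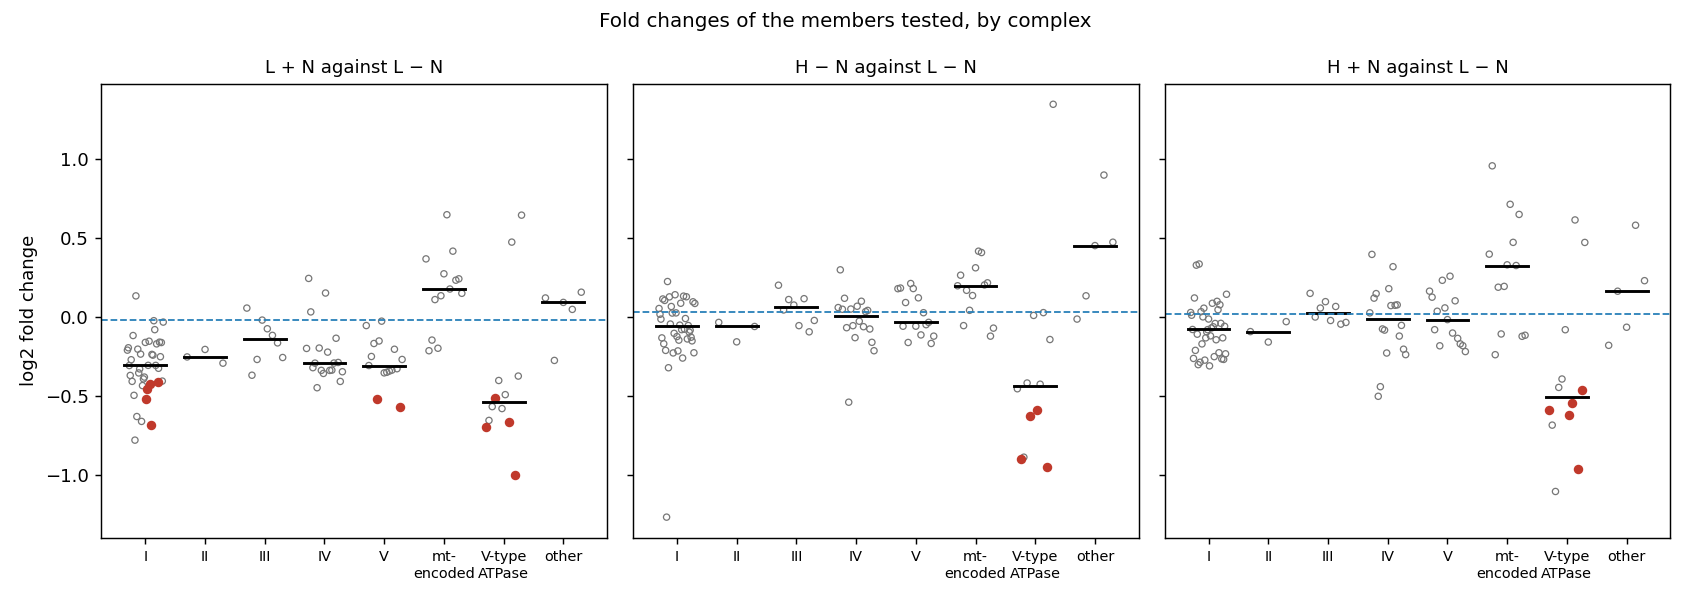
Log2 fold change of each tested member against L − N (y axis) in L + N, H − N and H + N, by complex (x axis, with I to V holding the nuclear genes). Red points are members with an adjusted p under 0.05, black bars are medians and the dashed line is the median over all genes. In L + N the medians of complexes I to V are between -0.31 and -0.14, in H − N and H + N between -0.09 and 0.06, and the V-type ATPase lies below the line in all 3 panels.

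In both high-fiber groups the sum of these genes overlapped with L − N. The 83 genes summed to 5334 to 5916 CPM in H − N and 4976 to 6018 CPM in H + N. All H − N libraries lay below all L − N libraries for 2 of the 83 and above for 2, against 1942 and 1960 of all 15351 genes. For H + N these counts were 4 and 1 of the 83, against 1956 and 2338 of all genes. The median log2 fold change of the 83 was -0.04 in H − N, with -0.08 to 0.01 when single libraries were left out (lowest without L − N replicate 1, highest without L − N replicate 2). It was -0.05 in H + N, and leaving out H + N replicate 3 gave -0.14, while leaving out L − N replicate 2 gave -0.01. At an adjusted p under 0.05 by edgeR 0 of the 83 passed in either, against 5.27% and 7.97% of all genes. At an unadjusted p under 0.05 there were 0 and 2 of the 83, against 24.4% and 27.5% of all genes, and DESeq2 passed 0 of the 83 in either, against 13.6% and 17.5% of all genes. NDUFB9 was at 47.8, 37.1 and 36.1 CPM in H − N and 41.7, 37.3 and 42.8 CPM in H + N, which overlapped. The interaction asks whether NCG acted differently on the 2 fiber levels. Its log2 estimate was above 0 for 75 of the 83, with a median of 0.24 beside -0.01 over all genes, of which 49.4% were above 0. The median was 0.15 without H + N replicate 3. With the length correction described below, it was 0.206 beside 0.055 for all genes, and the distance between them fell from 0.25 to 0.15. The estimate then was below 0 for 8 of the 83 and for 44.9% of all genes. At an adjusted p under 0.05, 0 of the 83 passed it with edgeR, as did 0% of all genes, while 11 had an unadjusted p under 0.05, against 12.8% of all genes. With DESeq2 1 of the 83 passed, NDUFB5, against 1.94% of all genes. The 12 V-type ATPase members had a larger median estimate of 0.49, with 11 above 0, and 0.52 with the length correction. Of these 12, 7 had an unadjusted p under 0.05 and 0 passed an adjusted p under 0.05 with edgeR. The smallest adjusted p among members was for NDUFB5 (log2 estimate 0.48 ± 0.14, adjusted p = 0.26) and NDUFB9 (0.70 ± 0.21, adjusted p = 0.27, edgeR).

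The length of the gene model bears on the result in L + N. The nuclear members of complexes I to V had a median length of 850 bases, against 3730 bases for all genes tested, and 68 of the 83 were in the shortest of 4 equal length classes of all genes, up to 2190 bases. For all genes of that class the log2 fold change of L + N against L − N had a median of -0.17, and for the longest class it was 0.14. Within the shortest class the 68 members had a median of -0.31, and 6 of them fell at an adjusted p under 0.05, against 5.31% of all genes of that class. Of the 20 members of up to 600 bases 2 fell, against 10.6% of all genes of that length. For 38 of these 68, or 55.9%, all L + N libraries were below all L − N libraries, against 25.6% of all genes of that class. Among genes up to 600 bases, the median was -0.34 for 20 members and -0.33 for all 180 genes. Among genes of over 600 and up to 1000 bases it was -0.31 for 31 members and -0.24 for all 605 genes.

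When the trend with length was removed from each library, the median of the 83 genes in L + N was -0.16 and that of all genes was -0.10, so the distance between them shrank from -0.27 to -0.06. The log2 fold change then was below 0 for 75 of the 83 members and for 59% of all genes. Of the 7 genes that fell, NDUFB9 and ATP5F1E still passed, so that 2 of the 83 fell, against 992 of all 15351 genes. The V-type ATPase moved little by this correction. Its median was -0.56 for L + N, -0.45 for H − N and -0.47 for H + N, with 4 members passing in each, against 10.8%, 5.71% and 8.21% of all genes, at distances of -0.46, -0.45 and -0.45 from the median of all genes.

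**Figure D4:**
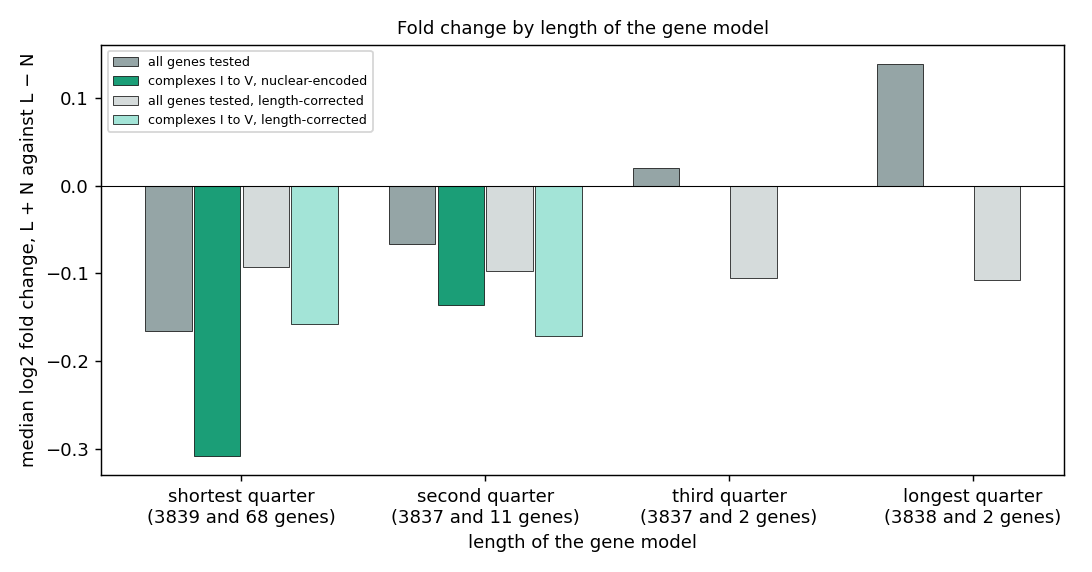
Median log2 fold change of L + N against L − N (y axis) in 4 equal classes of gene model length (x axis), for all genes tested and for the nuclear genes of complexes I to V, before and after removal of the trend with length. Before the correction the medians of all genes run from -0.17 in the shortest to 0.14 in the longest class. The medians of the complexes are left out in the 2 longest classes, which hold 2 of their genes each.

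Across both fiber levels, NCG gave a log2 fold change below 0 for 91 of the 113 members, with a median of -0.15 beside -0.03 for all genes, of which 53.1% were below 0. After the length correction this median was -0.05 beside -0.07 for all genes, so that it was no longer below that of all genes. The log2 fold change then was below 0 for 60 of the 83 nuclear members of complexes I to V and for 59.5% of all genes. By edgeR 3 members fell, ATP6V1E1 (-0.39 ± 0.09, adjusted p = 0.0266), ATP6V1G1 (-0.35 ± 0.08, adjusted p = 0.0274) and ATP6V0E1 (-0.42 ± 0.10, adjusted p = 0.0337), against 1.6% of all genes, and none of the 3 passed after the length correction, with log2 fold changes of -0.32, -0.26 and -0.31. The median of the 12 V-type ATPase members for NCG was -0.30 before and -0.27 after this correction, and 11 of the 12 were below 0 after it. The 3 calls for NCG also depended on single libraries. Without L − N replicate 2 or 3 or L + N replicate 3, 0 members passed, against 3.83% to 6.16% of all genes. Without H + N replicate 1 only ATP5F1E passed, against 3.75%, and without L − N replicate 1, 10 members passed, against 8.01%. The endothelial marker PECAM1 fell with NCG (log2 fold change -0.74, adjusted p = 0.0118, edgeR), and its part was not tested. High fiber was also compared with low fiber over both NCG levels. The log2 fold change was above 0 for 85 of the 113 members and 53.7% of all genes, with a median of 0.10 beside 0.02, which was 0.06 without H + N replicate 3. By edgeR 0 members passed an adjusted p under 0.05, against 0.0521% of all genes, while 11 had an unadjusted p under 0.05, against 19.5% of all genes, and DESeq2 passed 2, ATP6V1D and PPA1, against 7.32% of all genes. The V-type ATPase went the other way, with 9 of 12 members below 0, against 46.3% of all genes, and a median of -0.18.

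The 13 genes of the mitochondrial genome, which are transcribed as long precursors and encode core subunits of complexes I, III, IV and V, passed in no comparison by edgeR, also not for NCG, where 7.27% of all genes passed. With DESeq2 1 of the 13 passed, ND2 in H + N, where 17.5% of all genes passed. They summed to 30454 to 33730 CPM in L − N, 25433 to 37186 CPM in L + N, 30006 to 38951 CPM in H − N and 32038 to 33168 CPM in H + N, and all groups overlapped. The median log2 fold change against L − N was 0.18 for L + N, 0.20 for H − N and 0.32 for H + N. In these comparisons, 0 of 13 passed an adjusted p under 0.05 by edgeR, against 9.6%, 5.27% and 7.97% of all genes. At an unadjusted p under 0.05 there were 1, 0 and 1 of the 13, against 27.8%, 24.4% and 27.5% of all genes. For 5 of the 13, all H + N libraries were above all L − N libraries, against 15.2% of all genes.

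ND2, a membrane-arm subunit of complex I (positions 5087 to 6128 of the mitochondrial genome), came nearest to a call. Its level was 630 to 891 CPM in L − N and 1219, 1460 and 927 CPM in L + N. It was 650, 1350 and 1073 CPM in H − N and 1359, 1111 and 1305 CPM in H + N. All L + N and H + N libraries were above all L − N libraries, whereas H − N overlapped with L − N. The log2 fold change was 0.65 ± 0.26 in L + N (adjusted p = 0.128) and 0.71 ± 0.26 in H + N (adjusted p = 0.09996, edgeR). COX1, the catalytic subunit of complex IV, took the opposite direction in H + N, with 10072, 10142 and 11061 CPM beside 11977, 12775 and 12191 CPM in L − N, and it did not pass.

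**Figure D5:**
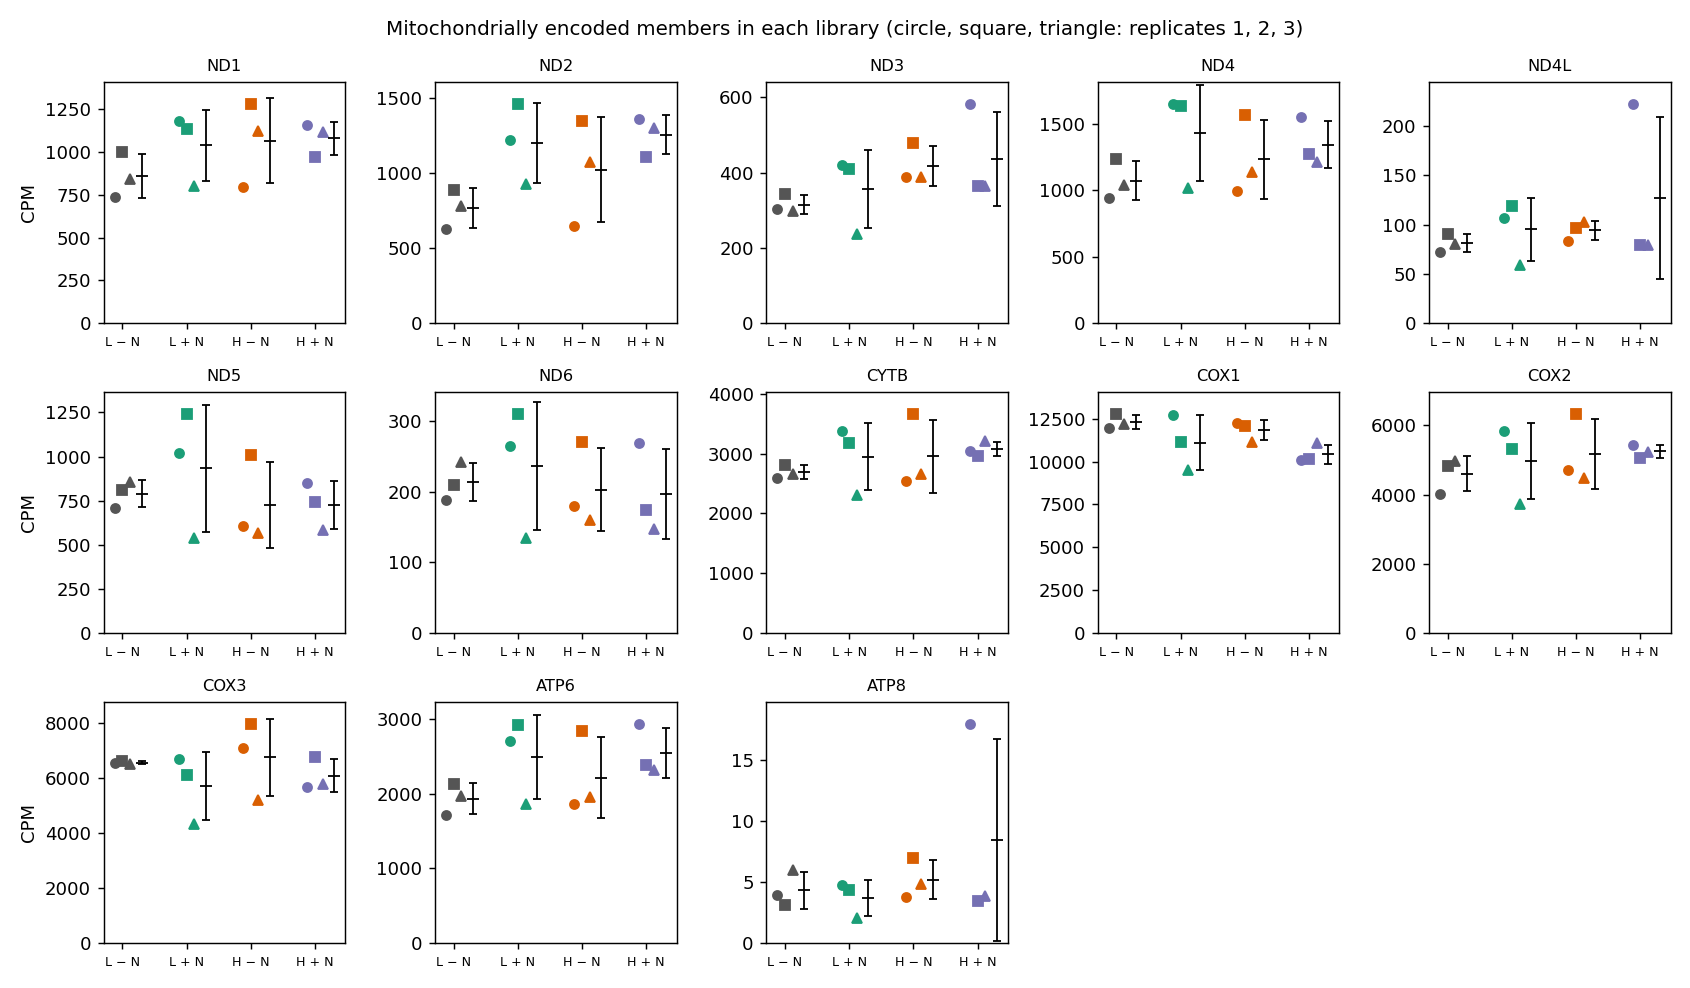
Level of the 13 mitochondrially encoded members in CPM (y axis) in each library, by diet group (x axis), with replicates 1, 2 and 3 as circles, squares and triangles and mean ± SD in black (n = 3). L + N replicate 3 is the lowest and H − N replicate 2 among the highest for most genes, and H + N replicate 1 stands apart in ATP8, with 17.9 CPM, and in ND4L, with 222 CPM.

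Single libraries moved these medians. Without L + N replicate 3 the median of the 13 genes in L + N was 0.44, and without L + N replicate 2 it was 0.06. Without H − N replicate 2 the median in H − N was -0.01, without H − N replicate 1 it was 0.30, and without H + N replicate 1 the median in H + N was 0.14. ATP8, a small subunit of the ATP synthase, was at 17.9 CPM in H + N replicate 1 and at 2.03 to 6.93 CPM in the other 11 libraries. ND4L, a small membrane subunit of complex I, was at 222 CPM there and at 59.2 to 119 CPM elsewhere. The gene models of both overlap a neighbor on the same strand, ATP6 by 43 bases and ND4 by 7 bases.

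Of the 5 members outside the complexes, PPA1, the cytosolic inorganic pyrophosphatase, had the highest log2 fold change with fiber. Its level was 38.7 to 47.2 CPM in L − N and 39.8 to 47.1 CPM in L + N. It was 66.1, 56.2 and 113 CPM in H − N and 60.6, 40.0 and 88.1 CPM in H + N. All H − N libraries were above L − N, and H + N overlapped with both low-fiber groups. The log2 fold change of high against low fiber was 0.72 ± 0.20 (adjusted p = 0.112, edgeR), which did not pass. The mitochondrial pyrophosphatase PPA2 was at 23.9 to 28.3 CPM in L − N and 28.1 to 45.3 CPM in H − N (log2 fold change 0.47 ± 0.17, adjusted p = 0.120, edgeR). CYCS, the cytochrome c gene, was at 65.9, 98.4 and 91.3 CPM in L − N and 80.5, 57.9 and 148 CPM in H + N, with full overlap. COX17, a copper chaperone for complex IV, had a log2 fold change of 0.29 ± 0.10 with fiber (adjusted p = 0.160, edgeR).

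Genes that serve the pathway but are no members were read from lists. Of 16 regulators of mitochondrial genes, 1 rose and none fell in L + N against L − N, beside 5.97% of all genes that rose. This was GABPA, a subunit of nuclear respiratory factor 2, which acts on promoters of many respiratory genes. It was at 33.9, 44.5 and 45.7 CPM in L − N and at 75.7, 70.4 and 61.5 CPM in L + N, with no overlap (log2 fold change 0.74 ± 0.17, adjusted p = 0.0233, edgeR). Without L − N replicate 3 or L + N replicate 1 or 2, 0 of the 16 passed, against 1.35% to 4.27% of all genes, and 2 passed without L − N replicate 1, against 12.8%. The level of GABPA was 36.9 to 51.5 CPM in H − N and 53.2 to 70.2 CPM in H + N. GABPA also rose with NCG over both fiber levels (log2 fold change 0.56 ± 0.12, adjusted p = 0.0195, edgeR), where 7.27% of all genes passed. For NCG, 0 of the 16 passed without L + N replicate 2, against 3.41% of all genes, and 2 passed without L − N replicate 1, against 8.01%. GABPA and ATP5PF overlap by 722 bases on opposite strands, and their values moved in opposite directions in L + N. The coactivator PPARGC1A had a log2 fold change of -0.63 in L + N, the nuclear receptor ESRRA -0.45, the transcription factor NRF1 0.29 and TFAM, which packages and transcribes mitochondrial DNA, 0.41, and none of these passed. In H − N and H + N, 0 of the 16 passed by edgeR, against 5.27% and 7.97% of all genes, with 1 and 5 at an unadjusted p under 0.05, against 24.4% and 27.5% of all genes. DESeq2 passed 1 and 3, against 13.6% and 17.5%.

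Of 27 assembly factors of the respiratory chain that were tested, 1 rose in L + N, the complex III factor LYRM7 (log2 fold change 0.85 ± 0.22, adjusted p = 0.0331, edgeR), and the median was -0.02. For this and the next lists the shares over all genes were 5.97% that rose and 3.63% that fell in L + N, 1.56% and 3.71% in H − N, and 4.31% and 3.66% in H + N. Of 21 genes of mitochondrial import and the outer membrane, VDAC3, a channel of the outer membrane, fell in L + N (-0.53 ± 0.12, adjusted p = 0.0217, edgeR). The import receptor TOMM20 rose in H − N (0.57 ± 0.14, adjusted p = 0.0447, edgeR). Among 22 electron carriers and genes of ATP export, SLC25A4, a carrier that exchanges ADP for ATP across the inner membrane, fell in all 3 comparisons. It was at 42.3, 57.4 and 55.7 CPM in L − N and at 25.4 to 33.2 CPM in the other 9 libraries, below all of L − N. Its log2 fold change was -0.96 ± 0.13 in L + N (adjusted p = 0.00819), -0.73 ± 0.13 in H − N (adjusted p = 0.0194) and -0.88 ± 0.13 in H + N (adjusted p = 0.0136, edgeR). UCP2, another carrier of the inner membrane, fell in H − N (-1.05 ± 0.25, adjusted p = 0.0372, edgeR). With NCG over both fiber levels, SLC25A4 fell (-0.56 ± 0.09, adjusted p = 0.00728) and LYRM7 rose (0.60 ± 0.15, adjusted p = 0.0381, edgeR), where 7.27% of all genes passed. LYRM7, VDAC3, TOMM20, SLC25A4 and UCP2 are named because they passed, chosen after their values were seen. Single libraries bear on these calls too. Without H − N replicate 1, 0 of all genes passed in H − N, so none of the calls in H − N stood. Without L − N replicate 3, 6 of all genes passed in H − N, 4 in H + N and 207 in L + N. Without H + N replicate 1, 1 of all genes passed in H + N. These genes were not followed one by one in such fits.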

How the data were processed

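RNA of endometrium was measured in 12 libraries, 3 in each of 4 diet groups, which were read from the codes in the deposited titles. The authors deposited a table with a count and an FPKM value per gene and library. The counts, per the submitters' processing notes, come from fastp 0.22.0, HISAT2 2.1.0 and HTSeq 0.9.1 on Sscrofa11.1, and are not normalized. The authors made the deposited FPKM values from counts, gene length and library total, and these were not tested. The deposited gene length was used for CPM per kilobase and for the length correction. The strand setting of the counting is not given in the sources used here.

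Members, gene lists and marker lists were chosen with earlier results of these data known. All 122 members matched the RefSeq annotation with the same coordinates, and 21 carried a LOC name and are given by the symbol in their description. In R 4.3.3 with edgeR 4.0.16, filterByExpr left 15351 genes. After TMM scaling of the counts, edgeR's quasi-likelihood fit took the 4 groups and the 12 libraries together, and p-values were adjusted by Benjamini-Hochberg over all genes. Log2 levels used a prior count of 2. The length correction fitted a natural spline with 5 degrees of freedom on log2 length to each library and used it as an offset. DESeq2 1.42.0, other scalings, no filter, a block for the replicate number, library sizes from nuclear genes alone and leaving out each library were alternatives. The biological coefficient of variation was 0.269. The method was also run on simulated counts with set changes in H + N. These were larger than any member showed and carried no trend with length. The run therefore tests neither differences as small as those given here nor the length correction.

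Named members are, per comparison, up to 5 per direction past both thresholds, otherwise the 2 with the smallest p-value, the most abundant gene of each complex, alternative forms of a subunit, the mitochondrial genes, core subunits by range and count, and regulators of mitochondrial genes. Other members, such as those with an adjusted p under 0.05 alone, COX11, UQCR11 and CYCS, were named after their values were seen. No source says that the libraries of a group share an animal or a batch, and the p-values measure the spread between these libraries.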

Additional observations from a re-analysis of the deposited data

How the results depend on the processing

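The alternatives for the V-type ATPase, the complexes and the mitochondrial genes as groups of their own, and the length classes at 600 and 1000 bases, were chosen after seeing the data. The counts below refer to an adjusted p under 0.05 unless both thresholds are named. With DESeq2 more members passed, 2 for fiber, 10 for NCG, 1 for the interaction, 9 in H + N, 8 in H − N, 21 in L + N and 16 for any difference. In the same order it passed 7.32%, 13.3%, 1.94%, 17.5%, 13.6%, 17.6% and 21.9% of all genes. Of these members, the V-type ATPase gave 1 for fiber, 5 for NCG, 8 in H + N, 7 in H − N and 7 in L + N. By both thresholds, DESeq2 called 1 member in H + N, against 6.44% of all genes. The length correction left 0 members for NCG, where the 3 that had passed were V-type ATPase subunits, 6 in L + N and 2 for any difference, against 7.02%, 10.8% and 7.5% of all genes. It moved the median of the members from -0.15 to -0.050 for NCG and from -0.26 to -0.14 in L + N, and that of all genes from -0.03 to -0.07 and from -0.02 to -0.10. By both thresholds, 0 members in L + N were left with upper quartile scaling, with the length correction and with the replicate block, against 4.18%, 3.55% and 3.49% of all genes.

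The replicate numbers do not pair animals. The deviations of libraries with the same number correlated at -0.32 to 0.28, and 3 of 12 libraries correlated best with their own number. With the replicate block, 6 members passed in L + N, 1 in H + N, 0 in H − N and 0 for any difference, against 7.15%, 4.76%, 2.48% and 3.11% of all genes. With the replicate block and the length correction together, 0 passed for NCG, 2 in H + N, 1 in H − N, 5 in L + N and 0 for any difference, against 4.77%, 5.08%, 3.13%, 7.87% and 3.05% of all genes, 1 member was called in H + N and 0 in L + N by both thresholds, against 2.41% and 2.87% of all genes, and the median in L + N was -0.14.

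Leaving out 1 library gave 0 to 4 members for fiber, 0 to 10 for NCG, 0 to 3 for the interaction, 0 to 8 in H + N, 0 to 8 in H − N, 0 to 22 in L + N and 0 to 12 for any difference. Each of these maxima came without L − N replicate 1, where 7.08%, 8.01%, 2.87%, 11.9%, 13.1%, 12.8% and 11.3% of all genes passed. For the V-type ATPase it gave 0 to 4 for fiber, 0 to 7 for NCG, 0 to 3 for the interaction, 0 to 8 in H + N, 0 to 7 in H − N and 0 to 8 in L + N. By both thresholds it gave 0 to 2 for the interaction, 0 to 1 in H + N, 0 to 3 in H − N and 0 to 1 in L + N, and without L − N replicate 1, which gave the highest of these, 2.25%, 6.11%, 7.24% and 5.89% of all genes were called. The count of members was 0 without L − N replicate 3 in the 3 comparisons with L − N, without L − N replicate 2 in H − N and H + N, without any single H − N library in H − N and without H + N replicate 1 or 3 in H + N, with 0% to 3.28% of all genes passing. The cause of these differences was not tested. No called value changed direction, but medians near 0 did. The median of the mitochondrial genes moved from 0.20 to -0.01 in H − N and from -0.11 to 0.07 for the interaction without H − N replicate 2. That of the nuclear genes of complexes I to V moved from -0.05 to 0.01 in H + N with the length correction and from -0.04 to 0.01 in H − N without L − N replicate 2. At this depth 9 of the 122 members were too low to test, and no alternative varied the depth.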

Other observations

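H + N replicate 1 stood apart in several members. COX6C, a subunit of complex IV, was at 202 CPM there and at 75.05 to 119.5 CPM in the other 11 libraries, while COX4I1, another subunit of that complex, was at 77.2 CPM there and at 140.4 to 193 CPM elsewhere. The 18 tested genes of up to 350 bases, a limit chosen after seeing the data, 5 of them members, had a median log2 deviation of 0.29 from their own mean in this library, and the 5 members one of 0.73. In the other 11 libraries the 5 members had -0.66 to 0.33. COX6C, with 522 bases, and COX4I1, with 904 bases, are outside this class. For genes of over 350 and up to 600 bases, the median deviation in H + N replicate 1 was 0.04, and for the 19 members among them it was 0.01.

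In H + N replicate 3, CYCS was at 148 CPM, ATP5F1B at 624 CPM and the coactivator PPRC1 at 118.5 CPM, each the highest of the 12 libraries. PPRC1 was at 33.6 to 43.5 CPM in L − N and at 48.8 to 73.4 CPM in H − N. H + N replicate 3 and L − N replicate 2 each held the highest level of 25 of the 113 tested members, and the 3 L + N libraries held the lowest level of 71 of the 113.

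NDUFA4L2, a relative of NDUFA4 known to respond to low oxygen, differed between the L − N libraries, at 2.29, 24.4 and 12.4 CPM.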
